A study of Zea mays subsp. mays with 2 samples.

Results

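Small loci of the maize seedling transcriptome, with spans above 300 and up to 500 bases, are described here. A locus is a stretch of the genome from which transcripts were assembled, and its span is its end minus its start. Of the 29674 loci in the deposited table, 640 (2.16%) lay on chromosomes 1 to 10, had a span in this range and were alone at their position. They were taken by position and span, without regard to their levels. A further 11 loci of this span were left out, 7 because they lay elsewhere and 4 because another locus had the same position.

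The plants were B73, the inbred line whose genome is the maize reference, grown in a chamber and harvested 14 days after germination. The groups are shoot tissue and root tissue of these plants, with no treatment named, and each is represented by 1 paired-end library of polyadenylated RNA. Whether plants were pooled is not given in the sources used here. The library type was non-directional, and the strand of a transcript is not given here. With 1 library an organ there is no spread between plants, no test between the organs was possible, and every difference is one between these 2 libraries. All 15 plastid loci in the table were higher in the library labelled shoot, the organ that holds chloroplasts.

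Short stretches of polyadenylated transcript can be compact genes, for example for small peptides, or noncoding RNAs. They can also be pieces of a longer transcript that was covered in patches. The table pairs its locus numbers with no gene names, 0 of these could be matched to a gene table of a later assembly, and it does not tell coding from noncoding loci. Which of these kinds a small locus belongs to is therefore not given, and loci are named by position on B73 RefGen_v2. Levels are in FPKM, the fragments per kilobase of transcript, scaled to the mapped fragments of the library, that the authors deposited. FPKM adjusts for length, but at short spans the adjustment is steep and transcript lengths are not known. Comparisons of levels between spans are therefore approximate. Every locus of the table exceeds 1 FPKM in one organ or the other, and the lowest value of the higher organ among the small loci was 1.006 FPKM. A small locus below 1 FPKM in one organ is thus listed only because the other organ was above it.

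The depth behind a small locus could be read from the values themselves. A fragment has few places to lie on a short transcript, so each fragment is worth more FPKM there than on a long one, and low values fell on steps of 1, 2, 3 and more fragments. A worth of 1 fragment that falls smoothly with span was fitted in each library. It was 0.0691 FPKM in the shoot library and 0.0610 FPKM in the root library at a span of 350 bases, and 0.0328 and 0.0289 FPKM at 500 bases. At 1 FPKM a locus of 350 bases therefore rested on about 14.5 shoot fragments or 16.4 root fragments, and a locus of 500 bases on 30.5 or 34.6. At the shortest spans of the class it rested on 9.86 and 11.2. The shoot worth was 1.13 to 1.14 times the root worth over this range, so at the same FPKM the root values rest on somewhat more fragments.

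The steps were also seen, less sharply, in loci the fit did not use. The fit used only loci of the third numbering series, which is described further on. Among those with up to 20 implied fragments, 66 of 74 in shoot and 53 of 61 in root came within 0.05 of a whole number. In the other numbering series, which the fit did not use, 19 of 37 in shoot (51.4%) and 35 of 51 in root (68.6%) did so, where values spread evenly would give 10%. From 20 to 60 implied fragments the shares were 73.1% in shoot and 67.6% in root for the fitted loci, and 45.2% and 33.3% for the others. A locus with an intron has a transcript shorter than its span, and its fragments are then overstated. In root, 2 values above 0, of 0.00497 and 0.0123 FPKM, lay below the worth of 1 fragment. The median small locus rested on about 59.8 fragments in shoot and 60.8 in root, and 49 loci (7.66%) had under 20 in both. Intervals given below are exact 95% intervals for counting error alone, computed from the rounded fragment numbers, and cover no difference between plants.

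**Figure D1:**
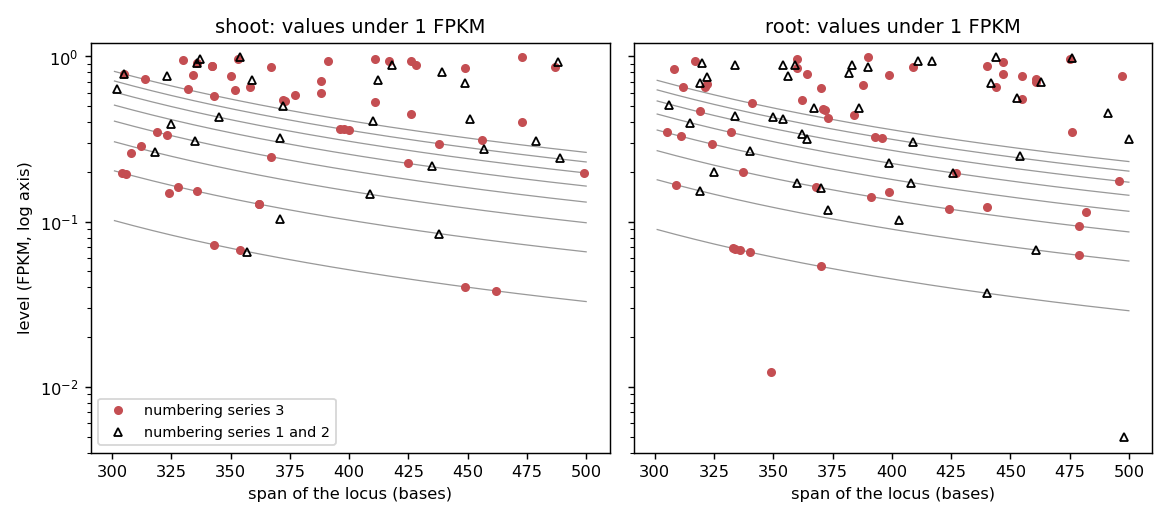
Values under 1 FPKM of the small loci (vertical log axis, FPKM) against span (bases), in shoot (left) and root (right). Each point is 1 locus, filled for the third numbering series and open for the other numbering series, and the grey lines are 1 to 8 fragments of the fitted worth. Many of the low points lie on the lines, the lowest line running from 0.101 to 0.0328 FPKM in shoot. Other points, more often open than filled ones, lie off the steps, and no line is drawn above 8 fragments.

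Most small loci were transcribed at low levels in both organs. In shoot the lowest value was a listed 0, the median 3.33 FPKM and the highest 126508 FPKM, with quartiles of 1.38 and 13.4 FPKM. In root the lowest was again 0, the median 3.01 FPKM and the highest 234113 FPKM, with quartiles of 1.19 and 13.1 FPKM. The organs thus covered nearly the same range. Over all listed loci the medians were about 3-fold higher, at 9.84 FPKM in shoot against 9.19 in root. The neighbouring span classes lay on both sides: loci of up to 300 bases, here and below without those of 110 bases or less, had medians of 19.1 and 16.7 FPKM, and loci above 500 and up to 1000 bases had medians of 4.53 and 4.26 FPKM. Small loci above 100 FPKM numbered 43 in shoot and 42 in root.

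Within the small loci the medians were lowest in the second of 4 steps of span and highest in the last, in both organs. Up to 350 bases the medians were 3.20 FPKM in shoot and 2.69 in root (n = 205). Above 350 and up to 400 bases they were 2.92 and 2.31 FPKM (n = 152), and above that and up to 450 bases 3.87 and 3.62 FPKM (n = 157). Above 450 bases they were 3.98 and 5.33 FPKM (n = 126), the one step in which root was the higher of the organs. At the edges of the class, the 4 shortest loci, 1 base above 300, ran from 2.33 to 25.9 FPKM in shoot and from 3.59 to 23.5 in root, and the 8 just outside it, of 300 bases, from 0.917 to 1901 and from 0.998 to 1019.9 FPKM. At the upper edge, 5 loci of 500 bases ran from 1.70 to 7.84 FPKM in shoot and from 0.318 to 167 in root. The next own position, of 502 bases, was at 28.3 and 5.53 FPKM.

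**Figure D2:**
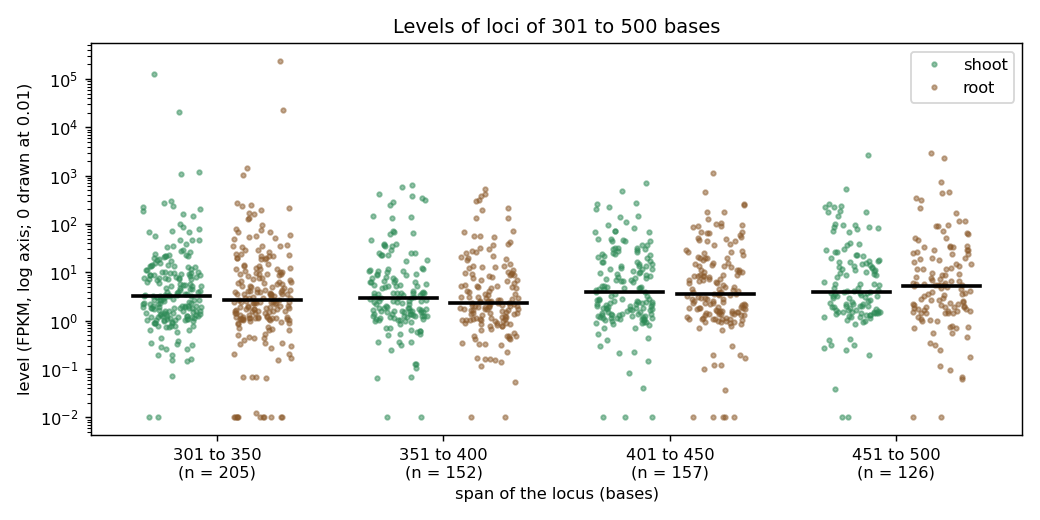
Level of each small locus (FPKM, log axis, with a listed 0 drawn at 0.01) in shoot and root, in 4 steps of span (bases). Points are loci and black bars are medians, which run from 2.92 to 3.98 FPKM in shoot and from 2.31 to 5.33 FPKM in root.

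A pair of loci held most of the summed level. Chromosome 6 from 112371867 to 112372186 stood at 126508 FPKM in shoot against 234113 in root, and made up 75.3% of the summed FPKM of the small loci in shoot and 83.4% in root. Chromosome 2 from 15154502 to 15154846 stood at 20336 FPKM in shoot against 22814 in root. Its nearest listed position lay 772 bases away, spanned 136 bases and was also abundant, at 956 and 831 FPKM. With both, the small loci made up 7.74% of all listed FPKM in shoot and 14.0% in root. Without both they made up 0.975% and 1.18%.

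The other loci of highest mean level were far below these. Chromosome 9 from 18136780 to 18137238 stood at 2717 FPKM in shoot against 2977 in root. Chromosome 3 from 141871402 to 141871880 stood at 261 FPKM in shoot against 2276 in root, 8.71-fold higher in root. The fifth, on chromosome 1 from 293998523 to 293998861, reached 1175 FPKM in shoot against 1054 in root. Of these 5 loci, only the one on chromosome 3 differed by more than 2-fold between the organs.

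Locus numbers carried a structure that the choice by span did not use. Taken in the order of their numbers, the loci of each of the 10 chromosomes ran along the chromosome 3 times from one end to the other, with 2 steps back among 29627 loci. The table does not say what these 3 numbering series stand for. Small loci were far more often in the third numbering series than loci at large: 297 of 640 (46.4%), against 10.9% of all loci on these chromosomes and 2.32% of own positions above 1000 bases. The share was 61.8% for spans up to 300 bases and 17.7% for spans above 500 and up to 1000 bases. Among the small loci it was 55.1% up to 350 bases and 33.3% above 450 bases.

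Small loci of the third numbering series were the less abundant ones. Their medians were 2.19 FPKM in shoot against 2.15 in root (n = 297), against 5.84 and 5.2 FPKM for the small loci of the first and second (n = 343). Of the small loci above 100 FPKM, 4 of 43 in shoot and 5 of 42 in root belonged to the third. On FPKM + 1, the log2 ratio of root to shoot had a median of -0.08 in the first, 0.02 in the second and 0.02 in the third.

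Small loci were detected in 1 organ alone more often than loci at large. At 1 FPKM, 433 (67.7%) reached detection in both organs, 117 (18.3%) only in shoot and 90 (14.1%) only in root. The shares over all listed loci were 83.3%, 10.3% and 6.48%. Every listed locus exceeds 1 FPKM in one organ or the other, so at this cut a locus not detected in both is in 1 alone by construction. Small loci were also lower, with medians of 3.33 and 3.01 FPKM against 9.84 and 9.19. The larger shares in 1 organ alone are therefore not read as a trait of small loci. Loci above 500 and up to 1000 bases, with similar medians, had 69.3%, 16.5% and 14.2%. Most of the small loci below detection in an organ were still above 0 there: at 0.1 FPKM, 30 were seen in shoot only and 15 in root only. The FPKM + 1 of the organs correlated across the 640 loci on the log2 scale with coefficients of 0.87 (Pearson) and 0.76 (Spearman). These loci share the same 2 libraries and are not replicates.

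Few small loci differed by 4-fold or more between the organs. On the scale of log2((root FPKM + 1) / (shoot FPKM + 1)), 18 loci (2.81%) were higher in shoot by at least 4-fold, where 6.79% of all listed loci were called, and 17 (2.66%) were higher in root by as much, where 3.52% of all listed loci were called. The remaining 605 lay between, and 468 (73.1%) were within 2-fold, nearly the same share as over all listed loci (73.2%). The median log2 ratio was -0.02, with quartiles of -0.61 and 0.50, against a median of 0.06 over all listed loci. Each library is of a whole organ, so fewer cells of a type and less RNA per cell cannot be told apart in these ratios. All 35 called loci had counting intervals that did not overlap between the organs. Called or not, 352 of the small loci (55%) had such intervals. The levels needed for a call nearly fix that the intervals are apart, so this is not read as support for the calls.

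The comparison with all loci depended on the pseudocount, and that with loci of similar span did not change direction. A pseudocount of 1 FPKM holds back the ratio of low loci, and small loci are low. With a pseudocount of 0.1, 131 small loci (20.5%) were called in either direction, above the 17.3% of all listed loci. Called shares at the pseudocount of 1 were 5.47% for the small loci, 18.2% for spans up to 300 bases and 15.9% for spans above 500 and up to 1000 bases. At 0.1 the shares were 20.5%, 25.2% and 29.5%, and at 5 they were 2.5%, 11.5% and 8.13%. The contrast depended on the numbering series. At the pseudocount of 1, third-series calls toward shoot and root were 1.68% and 2.02% for small loci. They were 3.47% and 1.89% for spans above 500 and up to 1000 bases. In the first and second, 13 and 11 of 343 small loci were called, against 142 and 126 of 1479 longer ones. The larger gap was thus in the first and second. Spans up to 300 bases were not split this way. Whether any of these shares differ beyond the spread between plants could not be tested.

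Split by level, the small loci again had the lowest called share. Among loci with a mean of 5 to 20 FPKM, 7 of 136 small loci (5.15%) were called, against 22.5% of those above 500 and up to 1000 bases and 11.7% of all listed loci. At 20 FPKM and above it was 16 of 138 (11.6%), against 24.2% and 12.9%. From 2 to 5 FPKM it was 9 of 127 (7.09%), against 16.5% and 11%. Below 2 FPKM it was 3 of 239 (1.26%), against 1.95% and 1.47%. At a mean of 5 FPKM or more the order was the same with a pseudocount of 0.1, at 11.3%, 26.2% and 13.6%. The longer loci were not split by both level and numbering series, so the part of the series in these differences is not known.

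**Figure D3:**
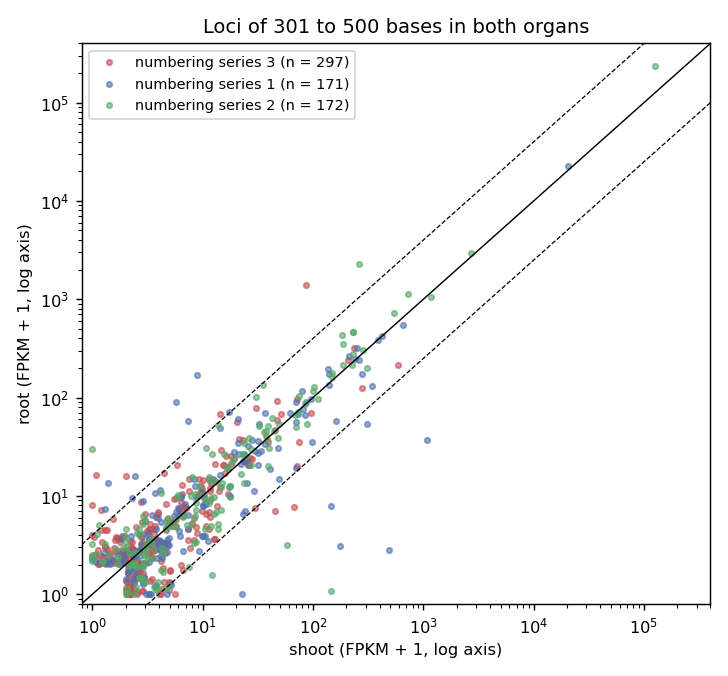
Root level against shoot level of the 640 small loci, both as FPKM + 1 on log axes. Each point is 1 locus, coloured by numbering series, the solid line marks equal values and the dashed lines mark 4-fold differences. Of the loci, 18 lie beyond the lower dashed line and 17 beyond the upper one.

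Calls fell in every step of span. The loci higher in shoot numbered 4, 5, 4 and 5 in the 4 steps of span from short to long, and those higher in root numbered 5, 2, 2 and 8. The largest share was that of root in the longest step, 8 of 126 (6.35%), where 3.52% of all listed loci were called. In the third numbering series 5 of 297 loci were called toward shoot and 6 toward root. In the first and second it was 13 and 11 of 343, and over all listed loci 6.79% and 3.52%. Calls toward shoot lay on 8 chromosomes and calls toward root on 8. Chromosome 8 had 71 small loci and 0 calls, and the 4 calls on chromosome 5 were all toward shoot. These counts are small, the called share of all listed loci was not counted per chromosome, and whether chromosomes differ was not tested. Of the loci higher in shoot, 8 of 18 were still at 1 FPKM or more in root, as were 9 of 17 in the reverse direction.

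Toward shoot, the largest log2(FPKM + 1) ratios among loci above 0 in both organs belonged to loci that were abundant there and at a few FPKM or less in root. XLOC_009835, on chromosome 2 from 189225670 to 189226100, reached 484 FPKM in shoot against 1.82 in root, a 266-fold difference with a counting interval from 200.2 to 363. XLOC_031513, on chromosome 7 from 158127002 to 158127463, reached 145 FPKM in shoot against 0.0673 in root. That root value is 2.0 fragments by the fitted worth, so its 2146-fold difference has an interval of 594 to 17739. Its nearest listed position, 9244 bases away, was at 135 FPKM in shoot against 134 in root.

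The next loci toward shoot each had more root fragments than the one on chromosome 7. Chromosome 1 from 189688258 to 189688734 stood at 174 FPKM in shoot against 2.07 in root, 84.0-fold with an interval of 66.2 to 109.8. Chromosome 4 from 149877143 to 149877445 stood at 1084 FPKM in shoot against 35.9 in root, 30.2-fold with an interval of 27.4 to 33.5. It was thus clearly present in both organs. On chromosome 10, levels were 144 and 6.93 FPKM at 149531568 to 149531956, and 56.5 and 2.19 FPKM at 2629880 to 2630220. Chromosome 6 from 145562204 to 145562572 stood at 66.1 FPKM in shoot against 6.77 in root, and chromosome 3 from 38534951 to 38535404 at 11.2 and 0.559 FPKM. The folds of these last 4 were 20.8 (17.6 to 24.8), 25.8 (18.5 to 38.3), 9.76 (8.10 to 11.8) and 19.98 (12.1 to 35.5), with counting intervals in brackets.

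Toward root, among loci above 0 in both organs, the largest log2(FPKM + 1) ratio was 4.25, against -7.43 toward shoot. XLOC_013894, on chromosome 3 from 130829508 to 130830008, reached 7.84 FPKM in shoot against 167 in root, 21.3-fold with an interval of 18.7 to 24.4. It stood alone, with 173974 bases to the nearest listed position. XLOC_029316, on chromosome 6 from 166083883 to 166084229, reached 86.1 FPKM in shoot against 1410 in root, 16.4-fold with an interval of 15.5 to 17.4. It was the most abundant small locus of the third numbering series in root. On chromosome 3 from 52308822 to 52309318 the levels were 4.70 FPKM in shoot against 89.3 in root, 19.0-fold.

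Several called loci rested on little in the other organ, and some depended on the pseudocount. With a pseudocount of 5, the loci named above or below on chromosome 3 from 38534951, chromosome 4 from 220834857, chromosome 10 from 85857170 and chromosome 2 from 156138231 missed the 4-fold call, at log2 ratios of -1.54, 1.99, 1.69 and 1.72. Some root loci rested on very few shoot fragments. Chromosome 4 from 220834857 to 220835211 stood at 0.0673 FPKM in shoot, which is 1.0 fragment, and at 15.1 FPKM in root, about 255 fragments. Its 225-fold difference has a counting interval of 40 to 8924. Chromosome 10 from 85857170 to 85857495 stood at 0.389 FPKM in shoot against 12.4 in root, 31.7-fold with an interval of 12.5 to 93.2. Chromosome 2 from 156138231 to 156138704 stood at 0.994 FPKM in shoot against 14.8 in root, and chromosome 9 from 151682895 to 151683273 at 6.36 and 56.8 FPKM. The sixth of this ranking is the abundant locus on chromosome 3 from 141871402, given above.

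A value of 0 was listed for 19 small loci in root and 9 in shoot. These shares, 2.97% and 1.41%, compare with 0.718% and 0.310% of all listed loci. They lay between those of the neighbouring span classes, 5.42% and 2.17% up to 300 bases, and 1.45% and 0.780% above 500 and up to 1000 bases. Of the 19 in root, 11 had spans up to 350 bases, and of the 9 in shoot, 2 did. Among all 640 small loci, 205 had such spans. Whether a listed 0 goes with span was not tested. Most of the 19 were low in shoot, with a median of 1.21 FPKM, and 4 of them were called. With 0 in root a call depends on the shoot level alone, and the called share of all loci listed at 0 was not counted. The highest, on chromosome 7 from 141644468 to 141644776, reached 21.9 FPKM in shoot, where a root count of 0 would allow up to 0.253 FPKM (3 fragments). On chromosome 2 from 216838836 to 216839259 the shoot level was 4.59 FPKM, and on chromosome 7 from 13054289 to 13054658 it was 3.73 FPKM. Both missed the call with a pseudocount of 5 and with rescaled library sums, the latter giving log2 ratios of -1.64 and -1.44. That rescaling multiplied shoot values by 0.461 and root values by 0.499 while the pseudocount stayed at 1 FPKM. With 0 in root it therefore acts only as a larger pseudocount.

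Of the 9 loci listed at 0 in shoot, 2 were called, which here depends on the root level alone. Chromosome 1 from 6579359 to 6579852 stood at 29.3 FPKM in root, where a shoot count of 0 would allow up to 0.101 FPKM. Chromosome 2 from 125195252 to 125195748 stood at 7.12 FPKM in root, and its log2 ratio fell from a call to 1.28 with a pseudocount of 5. Chromosome 7 from 118128540 to 118128977 stood at 2.96 FPKM in root, just short of a call. With a pseudocount of 0.1 it was called. Its nearest listed position was another small locus, 19028 bases before it, from 118109208 to 118109512, at 0.197 FPKM in shoot (2.0 fragments) and 6.21 FPKM in root. No fold is given for values listed at 0, as an estimate that failed can also be listed so.

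At the other end, 71 small loci differed by less than 1.1-fold between the organs. The most abundant of them was the locus on chromosome 9 from 18136780, described above. Chromosome 6 from 136651075 to 136651475 stood at 417 FPKM in shoot against 418 in root, a ratio of 1.002 with an interval of 0.972 to 1.03. Its nearest listed position was similarly even, at 629.9 and 625 FPKM. Chromosome 7 from 172713202 to 172713584 stood at 384 FPKM in shoot against 381 in root. On chromosome 8 from 11682300 to 11682651 the levels were 283 FPKM in shoot against 302 in root.

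Small loci lay somewhat nearer to other listed positions than positions at large. Distance is the gap between the nearer ends of 2 positions, and 0 of the 26802 positions on these chromosomes overlapped another. The gap of the 640 small loci was 4 bases at the least, 8324 at the median and 590199 at the most, with quartiles of 1252 and 33208 bases. The median was 10787 bases over all positions, 12255 for spans up to 300 bases and 9204 for spans above 500 and up to 1000 bases. Within 1000 bases of another position lay 143 small loci (22.3%), against 16.2% of all positions, 18.6% of spans up to 300 bases and 16.9% of spans above 500 and up to 1000 bases. Beyond 100000 bases lay 45 small loci (7.03%), against 7.73% of all positions. The nearest position came after the locus in 319 cases and before it in the others.

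The short gaps belonged mostly to the third numbering series. There, 89 of 297 small loci (30.0%) lay within 1000 bases of another position, against 54 of 343 (15.7%) in the first and second, a share close to the 16.2% of all positions. The median gaps were 6691 and 9751 bases. Loci above 500 and up to 1000 bases showed nearly the same shares, 29.0% in the third numbering series and 14.3% in the others. The nearness of small loci therefore went with the numbering series, in these 2 span classes. Of the loci with spans up to 300 bases, 61.8% were in the third numbering series. Yet 18.6% of the loci of these spans lay within 1000 bases, and their median gap was 12255 bases. Their gaps were not split by numbering series, so the relation is not extended to them.

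**Figure D4:**
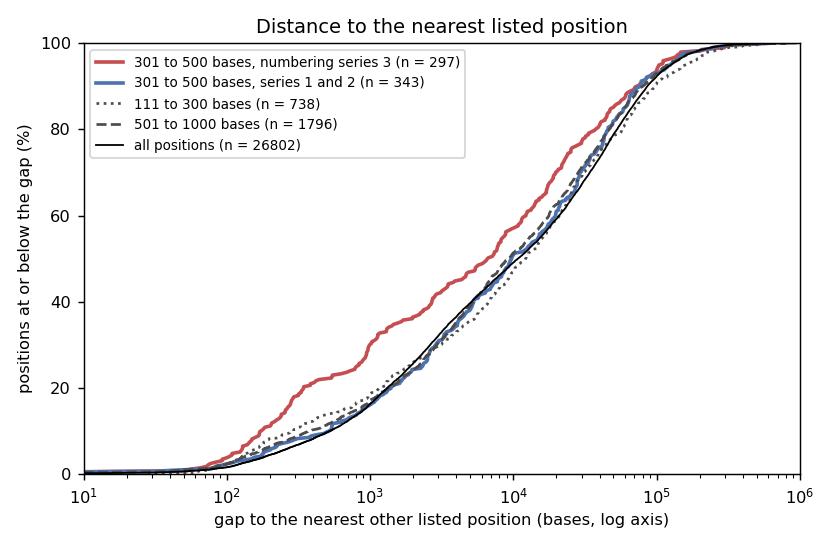
Share of positions (%) whose gap to the nearest other listed position is at or below the value on the horizontal log axis (bases). The red line, small loci of the third numbering series, reaches 30.0% at 1000 bases, and the blue line, the other small loci, reaches 15.7%. The grey and black lines are other span classes and all positions.

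The nearest of all small loci nearly touched their neighbours. Chromosome 1 from 193147705 to 193148086 stood at 37.8 FPKM in shoot against 19.0 in root, and the next position began 4 bases later, at 3.19 and 1.93 FPKM. Chromosome 6 from 94721488 to 94721967 was also 4 bases from its neighbour. It was at 1.5 and 3.80 FPKM, and the neighbour at 4.60 and 5.13 FPKM. The 3 loci that follow, 32, 47 and 53 bases from a neighbour, lay beside much more abundant positions. Chromosome 8 from 17379932 to 17380239 was at 3.17 and 1.45 FPKM beside a position at 50.6 and 40.2 FPKM. Chromosome 2 from 26830205 to 26830643 was at 1.4 and 1.42 FPKM beside one at 46.9 and 34.6 FPKM. Chromosome 8 from 134182540 to 134182916 was at 1.82 and 2.17 FPKM beside one that sums 3 loci at 18.9 and 19.1 FPKM.

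Some small loci lay far from anything else in the table. The most distant, on chromosome 1 from 132219572 to 132219963, reached 2.21 FPKM in shoot against 1.33 in root, 590199 bases from its nearest position. Chromosome 1 from 186543402 to 186543715, at a gap of 452084 bases, was at 3.20 FPKM in shoot, with 0 listed for root, where a count of 0 would allow up to 0.242 FPKM. Chromosome 10 from 32194890 to 32195295, at 331188 bases, was at 12.3 and 6.82 FPKM. The other two of the most distant, on chromosome 6 from 76075696 to 76076184 and chromosome 4 from 104343920 to 104344346, reached 0.929 and 1.75 FPKM in shoot, and 1.46 and 2.77 in root. Of these 5 loci, only the one listed at 0 in root was called.

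More small loci were below than above their nearest position, with a larger share in the third numbering series. Within 1000 bases, 91 of 143 (63.6%) had a lower summed level of both organs than the neighbour, whose median span was 1952 bases and whose medians were 12.5 FPKM in shoot against 7.61 in root. The small loci there were at 4.09 and 2.88 FPKM. From there to 10000 bases the share was 63.5%, from there to 100000 bases 66.3%, and beyond that 66.7%. In the third numbering series the shares over these 4 steps were 68.5%, 73.8%, 75.9% and 80.0%, the last of 20 loci. In the first and second they lay between 55.6% and 59.0%. Medians of the small loci themselves over these 4 steps ran from 2.29 to 3.43 FPKM in root and from 2.99 to 4.09 FPKM in shoot. In the first and second numbering series the shoot medians were 8.145, 4.71, 6.30 and 4.50 FPKM from near to far. In the third they were 2.86, 1.93, 1.73 and 2.02 FPKM.

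The organ ratio of a small locus followed that of its neighbour at short range. Across the 143 loci within 1000 bases, the log2(FPKM + 1) ratios of the locus and of its nearest position had a Pearson coefficient of 0.58, with 0.62 for Spearman's, and 101 (70.6%) had the same sign. From there to 10000 bases the Pearson coefficient was 0.07 (n = 200), from there to 100000 bases 0.14 (n = 252) and beyond that -0.07 (n = 45). Over all 640 loci it was 0.18. In the third numbering series it was 0.77 within 1000 bases (n = 89), against 0.45 in the first and second (n = 54), and whether these differ was not tested. The points share the same 2 libraries, and where a small locus is the neighbour of another both enter, which 13 of the 143 did.

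The same relation was seen in the other short span classes. Within 1000 bases the Pearson coefficient was 0.64 for spans up to 300 bases (n = 137) and 0.32 for spans above 500 and up to 1000 bases (n = 304), and the same sign was found in 78.1% and 68.8%. Whether these coefficients differ was not tested. Of the 35 called small loci, 6 had a nearest position called in the same direction, 4 one called in the other and 25 one that was not called. Toward shoot, the neighbour was also called toward shoot for 4 of 18 loci (22.2%), against 37 of the 605 loci not called (6.12%). Toward root it was 2 of 17 (11.8%), against 16 of 605 (2.64%). The 4 include a pair that are each other's nearest position.

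**Figure D5:**
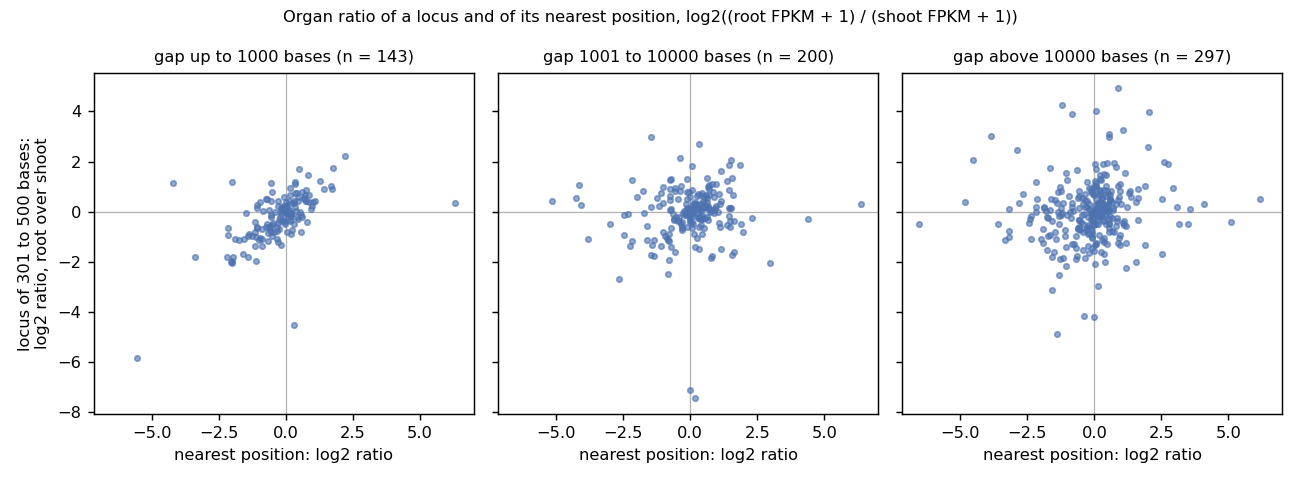
Ratio of root to shoot, log2((root FPKM + 1) / (shoot FPKM + 1)), of each small locus (vertical axis) against that of its nearest listed position (horizontal axis), in 3 panels by gap. Each point is 1 small locus. In the left panel, up to 1000 bases, the points lie along a rising line (Pearson coefficient 0.58, n = 143), and in the middle panel they do not (0.07, n = 200).

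The called loci whose nearest position was called in the same direction lay at gaps from 175 to 62868 bases, and those 175 bases apart are described with the runs. The locus on chromosome 1 from 189688258, at 174 and 2.07 FPKM, lay 421 bases from a position of 1952 bases that was at 74.6 FPKM in shoot against 0.587 in root. Chromosome 6 from 98629727 to 98630148 was at 44.3 and 6.0 FPKM, 1161 bases from a position at 17.5 and 2.0 FPKM. Toward root, chromosome 4 from 812270 to 812608 stood at 13.4 FPKM in shoot against 66.9 in root, 981 bases from a position at 0.293 and 5.0 FPKM. The locus on chromosome 3 from 52308822, at 4.70 and 89.3 FPKM, lay 62868 bases from a position at 0.222 and 4.03 FPKM. This grouping was chosen after the values were seen.

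Small loci also lay beside each other. In the order of positions, 57 of them formed 21 runs of 2 and 5 runs of 3 without another listed position between, and 9 of the 31 adjacent pairs were within 1000 bases. The closest pair, on chromosome 8, was 93 bases apart: 1926099 to 1926423 at 5.35 FPKM in shoot against 7.61 in root, and 1926516 to 1926857 at 2.23 and 1.62 FPKM. On chromosome 1, at 109 bases, 284975401 to 284975899 stood at 1.19 FPKM in shoot, with 0 listed for root, and 284976008 to 284976327 was at 1.91 and 0.465 FPKM. On chromosome 3, at 240 bases, 145001620 to 145002023 was at 28.0 and 10.2 FPKM, and 145002263 to 145002759 at 1.17 and 0.176 FPKM. On chromosome 1, at 343 bases, 81587667 to 81588097 was at 1.83 and 2.81 FPKM, and 81588440 to 81588836 at 1.25 and 2.02 FPKM. In 23 of the 31 pairs both partners leaned to the same organ, as in 3 of these 4.

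Both runs of 3 on chromosome 5 were higher in shoot throughout. The first is compact, and its last loci are 175 bases apart. From 209995807 to 209996161 the levels were 6.46 FPKM in shoot against 0.891 in root, 7.25-fold with an interval of 4.18 to 13.5. From 209996702 to 209997072 they were 3.64 and 0.161 FPKM, and from 209997247 to 209997673 they were 3.99 and 0.197 FPKM, 22.7-fold and 20.2-fold. All 3 are in the second numbering series, and whether they are pieces of a single transcript was not tested.

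The other run lies from 75162513 to 75207206, with its loci 28390 and 15151 bases apart, all in the third numbering series. Its shoot levels were 3.95, 1.25 and 1.85 FPKM. Its root levels were 0.0938, 0.0689 and 0.0654 FPKM, which are 3.0, 1.0 and 1.0 fragments. The lowest of the 3 folds, 18.1 for the locus from 75191382 to 75191715, has a counting interval of 2.81 to 760. These runs were singled out after their values were seen.

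Along the chromosomes, small loci took a larger share of positions in the middle than near the ends. When each chromosome was divided into 5 equal parts, they made up 2.03% of positions in the first part, 2.90% in the second, 3.56% in the third, 2.52% in the fourth and 2.0% in the last. The ends still held the most small loci, 132 and 174, against 107 in the third part, as positions of all spans were also most frequent there. In the third part the median gap was 14557 bases for small loci and 36835 bases for all positions, while in the last part it was 5291 and 5465 bases. Per chromosome, small loci were 1.79% of listed loci on chromosome 5 and 2.64% on chromosome 8, with the others between. Chromosome 8 also had the shortest median gap, 2370 bases, and chromosome 4 the longest, 18802 bases.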

How the data were processed

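RNA of 1 shoot and 1 root library was sequenced in paired-end runs of 100 cycles, per the labels. The authors deposited FPKM values, 1 per assembled locus and organ, on B73 RefGen_v2 per the file headers. The submitters' processing notes name TopHat, Cufflinks and Cuffdiff without their versions or settings, so how reads with several matches were counted, which could move single loci, is unknown. The columns were tied to the samples by their names.

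Computation used pandas 2.3.3, numpy 2.4.6 and scipy 1.17.1 in Python 3.11.15, with figures by matplotlib 3.10.9. Ratios were log2((root FPKM + 1) / (shoot FPKM + 1)), which understate the change of low loci, and a call is 4-fold or more. No filter was added. Numbering series were divided where, in number order, the start fell back by over 5000000 bases. The worth of 1 fragment was fitted as the reciprocal of a polynomial of degree 3 in span, maximising the mean cosine of implied fragment numbers up to 60 fragments (182 loci in shoot, 166 in root, mean cosines of 0.733 and 0.7296). At 2 times the worth the mean cosine was -0.00511 and -0.0480. On simulated data the largest error of the worth was 0.173% in shoot and 0.0308% in root. The simulated worth had the same form of curve as the fit and used spans of the third numbering series. It therefore checks the fitting alone, not the form of the curve or its use in the other numbering series. Fold intervals are exact conditional binomial intervals. Levels of loci that share a position were summed when that position was a neighbour.

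The loci were named by rule: the 5 of highest mean, the 8 of largest ratio in each direction among loci above 0 in both organs, the 3 highest in each organ listed at 0 in the other, the 5 nearest and 5 farthest, the closest pairs and the 4 most abundant differing under 1.1-fold. The loci, groups and rules were chosen with earlier results of these data known, and the numbering series and runs after seeing the data. No sequence is shown, since no genome of this build was used here.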

Additional observations from a re-analysis of the deposited data

How the results depend on the processing

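Counts of called loci followed the pseudocount and the threshold. The calls toward shoot and root, 18 and 17 as reported, were 79 and 52 with a pseudocount of 0.1, 10 and 6 with one of 5, 101 and 71 at 2-fold, and 8 and 8 at 8-fold. Rescaling each library to a sum of 1000000 gave 11 toward shoot. It multiplied shoot values by 0.461 and root values by 0.499 at an unchanged pseudocount, and so also acts as a larger pseudocount. A mean of 5 FPKM or more gave 11 toward shoot, and a narrower span, 20 bases in from each edge, gave 11 toward root. The other 11 alternative counts stayed within 1.5 times of those reported, and both counts kept their value when counting intervals had to be apart. That last setting could hardly change a count, since the levels needed for a call nearly fix that the intervals are apart. The median log2 ratio, -0.02, was 0.0683 with sums of 1000000, -0.10 with root divided by its median ratio to shoot, 1.07, and 0.0736 at a mean of 5 FPKM or more, so its sign is not settled. Detection at 5 FPKM gave 231 loci in both organs, 38 in shoot alone and 31 in root alone, and at 0.1 FPKM 30 and 15 in 1 organ alone. The median gap was 10430 bases between midpoints and 11582 bases to positions above 500 bases, and the share within 1000 bases was 7.03% and 17.7%. By construction midpoints add the spans, and the second leaves out short positions. The Pearson coefficient with the nearest position was 0.26 within 10000 bases. Comparing called shares across pseudocounts with other loci was chosen after seeing the data. No paired analysis was possible because each organ has 1 library, and none could be left out. Low values limit the folds: 120 small loci had under 20 fragments in shoot and 131 in root.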
